A study of Homo sapiens with 9 samples.

Results

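NF-kappaB is a family of transcription factors that wait in the cytoplasm bound to inhibitor proteins and enter the nucleus when cytokine or innate immune receptors activate the kinases that remove those inhibitors. Its targets include the genes of its own inhibitors, which close a feedback loop, and genes of chemokines, cytokines and adhesion molecules that recruit and instruct leukocytes. Osteosarcoma cells, like the bone-forming cells they resemble, can make several of these products themselves. The genes described here are 34 chosen by name for their place in this pathway: 5 factors, 9 feedback inhibitors and signalling regulators, 14 secreted products and 6 surface or intracellular effectors. Each gene was read by its brightest probe set (by the mean of the 9 arrays) among those annotated to that gene alone, which gave values for 31 of the 34 genes out of 19775 genes in all. BCL3, BIRC3 and CSF2 had no such probe set in the annotation used and were not analysed here.

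The arrays came from U2OS, a line of human osteosarcoma cells, in 3 groups of 3. The groups carried shBAP1 #1 or shBAP1 #2, 2 hairpins against the nuclear deubiquitinase gene BAP1, or shControl, a non-targeting hairpin. In all groups the hairpin plasmid was delivered with Lipofectamine 2000, transfected cells were selected with puromycin, and a double thymidine block held the cultures at the G1/S boundary, so the controls share transfection, selection and arrest. The study compared gene expression after BAP1 depletion with that of the control. The sources do not say whether the replicates were separate cultures, and p-values then measure only the spread between these arrays. In bulk RNA, a change in the share of cells that express a gene and a change within each cell cannot be told apart.

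Levels are log2 units after robust multi-array averaging, and the median over all probe set means, 5.44, serves below as a mark under which background limits the signal. Arrays of a group correlated at 0.995 to 0.997 over all probe sets, and arrays of different groups at 0.977 to 0.990. No probe set was annotated to BAP1 alone, and probe sets with several symbols were not used, so its level was not analysed here. The 3' minus 5' signal of actin, a measure of RNA integrity, was 0.39 to 0.41 with shBAP1 #1, 0.39 to 0.46 with shBAP1 #2 and 0.47 to 0.51 with shControl. Of 8 mesenchymal and osteoblast markers, 6 lay at or above the mark with shBAP1 #1, 7 with shBAP1 #2 and 6 with shControl, and their mean was 9.77 to 9.87, 9.35 to 9.46 and 9.13 to 9.21 per array in the same order. Of 5 epithelial markers 3 lay at or above it in each group, with means of 7.25 to 7.26, 7.01 to 7.11 and 7.54 to 7.69, and of 4 endothelial markers 1 did, with means of 5.18 to 5.28, 5.27 to 5.28 and 5.45 to 5.49. Of 6 measured leukocyte markers, 2 did so in each group, and the mean of these markers was 4.85 to 4.89 per array with shBAP1 #1, 4.86 to 4.93 with shBAP1 #2 and 4.90 to 4.98 with shControl. PTPRC, the pan-leukocyte surface phosphatase gene, averaged 4.04, 3.81 and 3.99 in the shBAP1 #1, shBAP1 #2 and shControl arrays, below the mark throughout. The 2 above it were CD3D, at 7.76, 7.87 and 8.28 in the same order, and ITGAM, at 5.86, 5.80 and 5.73. CD3D was lower than in shControl by -0.51 and -0.40 (limma, adjusted p = 0.0051 and 0.014). Without shControl replicate 2 the second was -0.31 (adjusted p = 0.057). The mesenchymal and epithelial means thus separated all 3 groups, and the actin signal and the endothelial means were apart between the controls and both hairpins but overlapped between the hairpins. The leukocyte means overlapped between the hairpins and between shBAP1 #2 and shControl. The 3' minus 5' signal of GAPDH overlapped in all groups, at -0.05 to -0.03 with shBAP1 #1, -0.04 to -0.03 with shBAP1 #2 and -0.06 to -0.02 with shControl. The part of these values in the results below was not tested.

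Short stretches of promoter are shown first, because several of these genes carry closely similar elements. The sequences are from RefSeq on build GRCh38.p14, and each runs 5′ to 3′ on the strand of its gene, upstream of the annotated start. Each window spans 60 bases. Capitals mark matches to the kappaB consensus, searched on both strands with overlapping matches merged, and to the 9-base run GGAATTTCC or its reverse complement GGAAATTCC, which can lie inside such a match.
NFKB1, chr4:102501274-102501333, plus strand: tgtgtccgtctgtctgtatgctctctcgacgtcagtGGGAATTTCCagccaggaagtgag
REL, chr2:60881489-60881548, plus strand: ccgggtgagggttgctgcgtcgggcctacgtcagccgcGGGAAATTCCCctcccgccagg
NFKBIA, chr14:35404795-35404854, minus strand: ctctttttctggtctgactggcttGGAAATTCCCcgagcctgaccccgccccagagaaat
CCL20, chr2:227813737-227813796, plus strand: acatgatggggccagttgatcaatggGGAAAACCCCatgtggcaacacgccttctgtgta
CXCL8, chr4:73740464-73740523, plus strand: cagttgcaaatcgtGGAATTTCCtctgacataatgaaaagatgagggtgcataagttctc
CXCL1, chr4:73869288-73869347, plus strand: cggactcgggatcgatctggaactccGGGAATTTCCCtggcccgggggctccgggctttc
CXCL2, chr4:74099241-74099300, minus strand: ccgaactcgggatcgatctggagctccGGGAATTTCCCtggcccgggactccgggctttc
CXCL3, chr4:74038735-74038794, minus strand: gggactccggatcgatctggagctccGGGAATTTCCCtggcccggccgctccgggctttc
IL6, chr7:22727095-22727154, plus strand: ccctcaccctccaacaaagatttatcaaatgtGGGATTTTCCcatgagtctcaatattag

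A kappaB consensus match lay within 250 bases upstream in 11 of the 26 measured genes that had a promoter sequence, or 42.3%, against 11.1% of the 15384 promoters of all genes tested. The 9-base run, picked after reading these sequences, was in 8 of the 26 (30.8%), against 0.41% of promoters of genes tested. The genes were chosen for their place in this pathway, many as known targets, so neither contrast is a test of the list. CXCL8 and ICAM1 carry the 9-base run without a consensus match. In the 3 neighbouring chemokine genes CXCL1, CXCL2 and CXCL3 the element is the same stretch of letters at nearly the same distance from the start.

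With shBAP1 #2, many genes of the NF-kappaB system were higher than in the controls. Of the 31 measured genes, 16 rose and 2 fell with shBAP1 #2 (limma, Benjamini-Hochberg adjusted p below 0.05), where 16.9% of all genes tested rose and 16.5% fell. With shBAP1 #1, 6 rose and 3 fell, beside 13% and 12.6% of all genes. The median log2 change of the 31 genes was 0.33 with shBAP1 #2 (0.02 over all genes) and -0.00 with shBAP1 #1 (0.01 over all genes). Set directly against each other, 5 genes were higher and 16 lower with shBAP1 #1 than with shBAP1 #2, beside 17.6% and 17.1% of all genes, and the median difference was -0.38. Both hairpins are compared with the same control arrays, so the 2 comparisons are not independent of each other. With shBAP1 #1, 9 of the 31 were thus called in either direction (25.6% of all genes), with shBAP1 #2 18 (33.4%) and between the hairpins 21 (34.7%). For the mean of both hairpins 14 rose and 2 fell, beside 14.1% and 14.6% of all genes (28.7% in either direction). That count rests partly on shControl replicate 1, without which 7 rose and 2 fell, and with a minimum change of 1.5-fold 2 rose and 1 fell. CSF1 and LIF rose with each hairpin (11.7% of all genes were called the same way with both), and NFKB2 and CCL20 were called in opposite directions (3.44% of all genes).

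By array values alone, all 3 shBAP1 #1 arrays lay above all 3 controls for 8 genes and below them for 3, where 20.1% and 18.7% of all genes did so. All 3 shBAP1 #2 arrays lay above the controls for 17 genes and below them for 4, beside 22.8% and 20.1% of all genes. The shBAP1 #1 arrays lay above the shBAP1 #2 arrays for 5 genes and below them for 16, beside 21.8% and 22.1%. Of the 31 genes, 6 had a mean below the mark, as did 35.5% of all genes. In the accounts that follow, a change is a log2 change and the value after ± is its SE in the model, which rests on 3 arrays a group.

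**Figure D1:**
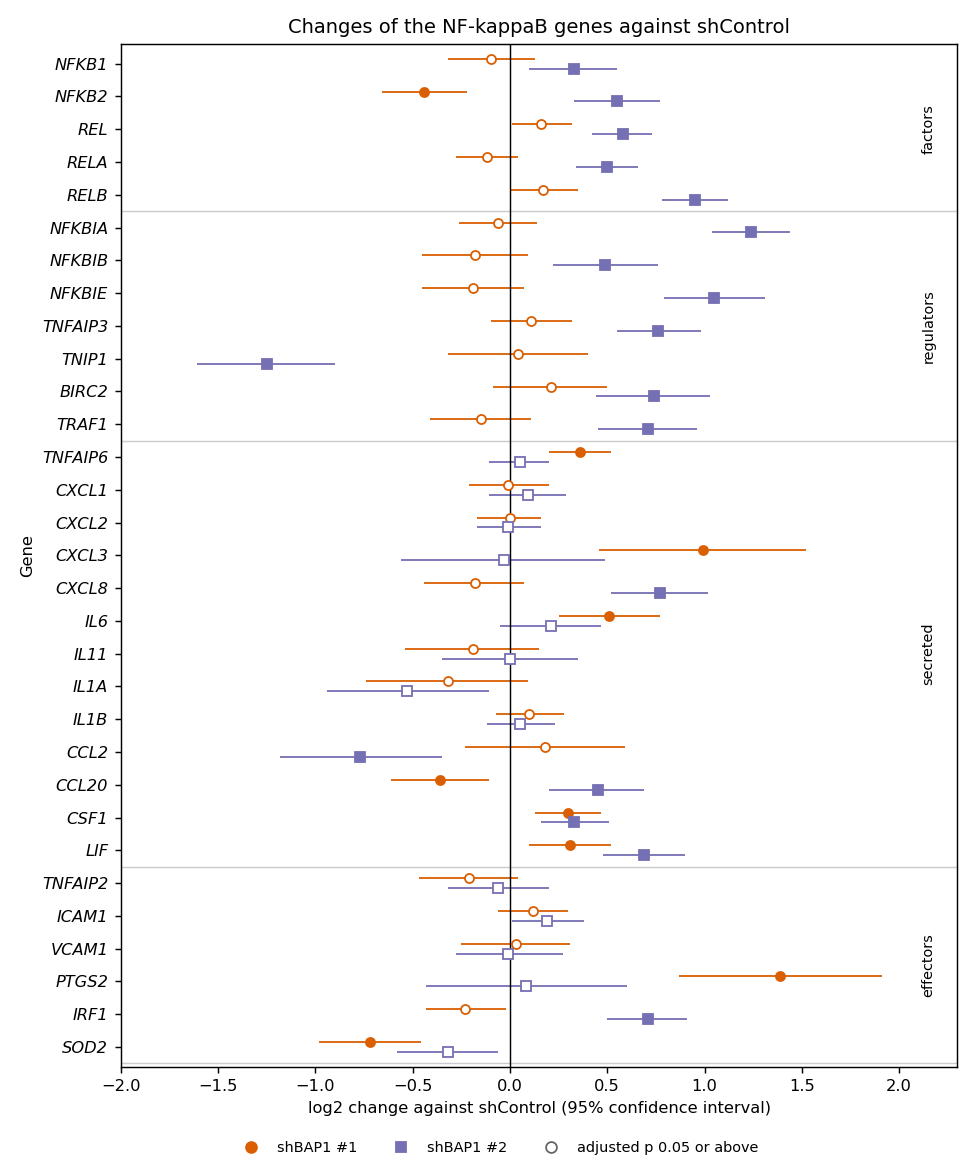
Log2 change against shControl (x axis) of the 31 measured NF-kappaB genes (y axis, by role) with shBAP1 #1 (circles) and shBAP1 #2 (squares). Points are fitted changes from 3 arrays per group, bars are 95% confidence intervals, and filled symbols passed an adjusted p of 0.05. All 5 factors and 6 of 7 regulators lie to the right of 0 with shBAP1 #2, while PTGS2 and CXCL3 lie furthest to the right with shBAP1 #1.

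All 5 genes of the DNA-binding factors rose with shBAP1 #2 (16.9% of all genes), and 1 of them, NFKB2, fell with shBAP1 #1 (12.6%). The largest rise was in RELB, the partner of the non-canonical branch. RELB read 6.92, 7.11 and 7.03 in the shBAP1 #1 arrays, 7.66, 7.82 and 7.90 in the shBAP1 #2 arrays and 6.87, 6.81 and 6.85 in the shControl arrays. The shBAP1 #2 arrays stood well above the other 6, and the shBAP1 #1 arrays sat narrowly above the controls. Its change was 0.95 ± 0.08 with shBAP1 #2 (1.93-fold, adjusted p = 1.7e-05) and 0.17 ± 0.08 with shBAP1 #1 (adjusted p = 0.15). The difference of shBAP1 #1 minus shBAP1 #2 was -0.78 (adjusted p = 3.5e-05).

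NFKB2 encodes the precursor that is processed to the other subunit of the non-canonical branch. It read 7.41, 7.56 and 7.43 with shBAP1 #1, 8.24, 8.58 and 8.54 with shBAP1 #2 and 7.90, 8.02 and 7.79 with shControl. The 3 groups did not overlap, with the controls between the hairpins. The change was -0.44 ± 0.10 with shBAP1 #1 (adjusted p = 0.0076) and 0.55 ± 0.10 with shBAP1 #2 (adjusted p = 0.0015). The hairpins differed by -0.99 (adjusted p = 3.3e-05). A further NFKB2 probe set above the mark gave -0.60 and 0.48.

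The canonical subunit genes rose with shBAP1 #2 as well. RELA, whose product carries the main transactivation domain of the family, read 8.84, 8.87 and 8.96 with shBAP1 #1, 9.48, 9.48 and 9.56 with shBAP1 #2 and 9.03, 8.90 and 9.10 with shControl. Only the shBAP1 #2 arrays lay apart, above both other groups, which overlapped. Its change was 0.50 ± 0.07 with shBAP1 #2 (adjusted p = 3.3e-04) and -0.12 ± 0.07 with shBAP1 #1 (adjusted p = 0.28).

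REL, the subunit known best from lymphocytes, read 7.55, 7.53 and 7.43 with shBAP1 #1, 7.92, 7.83 and 8.0 with shBAP1 #2 and 7.39, 7.27 and 7.36 with shControl. The groups were ordered without overlap, shBAP1 #2 highest and shControl lowest. REL rose by 0.58 ± 0.07 with shBAP1 #2 (adjusted p = 1.3e-04), while its change of 0.16 ± 0.07 with shBAP1 #1 did not pass (adjusted p = 0.12). Further REL probe sets, with means of 6.17 and 5.45, changed by 0.55 and 0.23 with shBAP1 #2. With shBAP1 #1 they changed by 0.38 and -0.10, so they disagree in sign there. NFKB1, which encodes the usual partner of RELA, read 8.46, 8.77 and 8.65 with shBAP1 #1, 8.95, 9.10 and 9.11 with shBAP1 #2 and 8.80, 8.82 and 8.56 with shControl. Its rise with shBAP1 #2 was the smallest of the 5 factors, 0.33 ± 0.10 (adjusted p = 0.028). That call was lost without shControl replicate 3 (0.24, adjusted p = 0.11), shBAP1 #2 replicate 2 (0.30, adjusted p = 0.09) or shBAP1 #2 replicate 3 (0.30, adjusted p = 0.091). The differences of shBAP1 #1 minus shBAP1 #2 for RELA, REL and NFKB1 were -0.62, -0.41 and -0.42, with adjusted p = 7.0e-05, 9.1e-04 and 0.007.

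**Figure D2:**
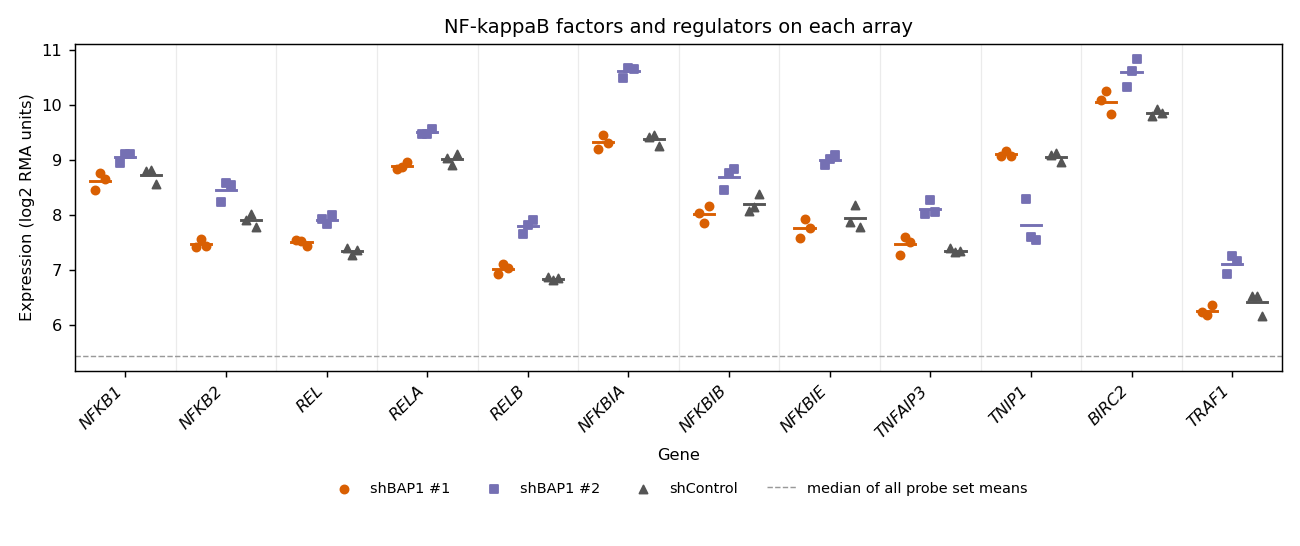
Level of each measured factor and regulator gene (x axis) on every array, in log2 RMA units (y axis), for shBAP1 #1 (circles), shBAP1 #2 (squares) and shControl (triangles), with group means as bars and the median of all probe set means (5.44) as a dashed line. The shBAP1 #2 arrays stand above both other groups for every gene shown except TNIP1, where they stand below.

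Of the 7 measured inhibitors and regulators, 6 rose and 1 fell with shBAP1 #2 (16.9% and 16.5% of all genes). With shBAP1 #1, 0 of 7 were called by limma (25.6% of all genes). NFKBIA, the gene of the classical inhibitor that NF-kappaB itself induces within its feedback loop, rose most. It read 9.20, 9.46 and 9.30 with shBAP1 #1, 10.50, 10.68 and 10.66 with shBAP1 #2 and 9.42, 9.46 and 9.26 with shControl. The shBAP1 #2 arrays were about a log2 unit above all others, and the other groups overlapped. The change was 1.24 ± 0.09 with shBAP1 #2 (2.36-fold, adjusted p = 8.2e-06) and -0.06 ± 0.09 with shBAP1 #1 (95% confidence interval -0.26 to 0.14).

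NFKBIE, a second inhibitor gene of the same family, read 7.58, 7.92 and 7.77 with shBAP1 #1, 8.90, 9.01 and 9.09 with shBAP1 #2 and 7.87, 8.18 and 7.78 with shControl. As for NFKBIA, the shBAP1 #2 arrays alone stood high. It rose by 1.05 ± 0.12 with shBAP1 #2 (2.08-fold, adjusted p = 7.9e-05) and changed by -0.19 ± 0.12 with shBAP1 #1 (adjusted p = 0.31). NFKBIB, the third inhibitor gene, read 8.03, 7.85 and 8.17 with shBAP1 #1, 8.45, 8.76 and 8.84 with shBAP1 #2 and 8.07, 8.15 and 8.38 with shControl. Its lowest shBAP1 #2 array was only just above the highest control. The change was 0.49 ± 0.12 with shBAP1 #2 (adjusted p = 0.0099) and -0.18 ± 0.12 with shBAP1 #1 (adjusted p = 0.35). With the probe set free of shared probes, NFKBIB also passed as lower with shBAP1 #1 (-0.49, adjusted p = 0.004).

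The other brakes on signalling split. TNFAIP3 encodes a ubiquitin-editing enzyme that shuts off signalling below cytokine receptors, and TNIP1 encodes a protein that binds it. TNFAIP3 read 7.28, 7.60 and 7.51 with shBAP1 #1, 8.01, 8.28 and 8.06 with shBAP1 #2 and 7.39, 7.33 and 7.34 with shControl. TNIP1 read 9.07, 9.16 and 9.08 with shBAP1 #1, 8.29, 7.60 and 7.54 with shBAP1 #2 and 9.09, 9.13 and 8.97 with shControl. The shBAP1 #2 arrays were the highest for TNFAIP3 and the lowest for TNIP1, in both cases with no overlap, and replicate 1 of shBAP1 #2 was nearest to the controls for TNIP1. TNFAIP3 rose by 0.76 ± 0.10 (1.7-fold, adjusted p = 1.6e-04), and TNIP1 fell by 1.25 ± 0.16 (2.39-fold lower, adjusted p = 1.9e-04). With shBAP1 #1 the changes were 0.11 (adjusted p = 0.49) and 0.04 (adjusted p = 0.9).

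Of the measured genes, 10 were read by probe sets with the suffix s and 2 with x, which mark probes shared between transcripts. Among the called genes, RELA, TNFAIP3, TNFAIP6, CXCL8 and CCL2 had no probe set without such a suffix. NFKBIA and TNIP1 were both read by probe sets with the suffix s. The only other probe set of each lay below the mark, at a mean of 4.62 for NFKBIA and 4.68 for TNIP1, and changed by 0.07 (adjusted p = 0.58) and -0.04 (adjusted p = 0.71) with shBAP1 #2, so neither call could be read a second time above background.

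Other regulators act at receptor complexes. BIRC2, a ubiquitin ligase of the inhibitor of apoptosis family, read 10.10, 10.25 and 9.84 with shBAP1 #1, 10.33, 10.62 and 10.84 with shBAP1 #2 and 9.80, 9.92 and 9.85 with shControl. TRAF1, an adaptor of tumour necrosis factor receptors, read 6.23, 6.18 and 6.36 with shBAP1 #1, 6.92, 7.26 and 7.16 with shBAP1 #2 and 6.53, 6.53 and 6.17 with shControl. In both genes the shBAP1 #2 arrays were the highest, and the shBAP1 #1 arrays overlapped the controls. BIRC2 rose by 0.74 ± 0.13 (adjusted p = 0.0015) and TRAF1 by 0.71 ± 0.12 (adjusted p = 8.5e-04) with shBAP1 #2. All 7 regulators passed the test between the hairpins, as did 34.7% of all genes. Among the 6 that rose, the differences of shBAP1 #1 minus shBAP1 #2 ran from -1.30 for NFKBIA to -0.53 for BIRC2. For TNIP1 the difference was 1.30.

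Of 13 measured secreted products, 5 rose and 1 fell with shBAP1 #1 (13% and 12.6% of all genes), and 4 rose and 1 fell with shBAP1 #2 (16.9% and 16.5%). With shBAP1 #2 the called share, 5 of 13, is near the 33.4% of all genes. The gene that fell with shBAP1 #1 was CCL20, whose call did not hold in all fits. The median log2 change was 0.10 and 0.05. Against each other, 3 were higher and 3 lower with shBAP1 #1 than with shBAP1 #2 (17.6% and 17.1% of all genes). TNFAIP6, CXCL1, CXCL2 and IL1B had means below the mark.

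**Figure D3:**
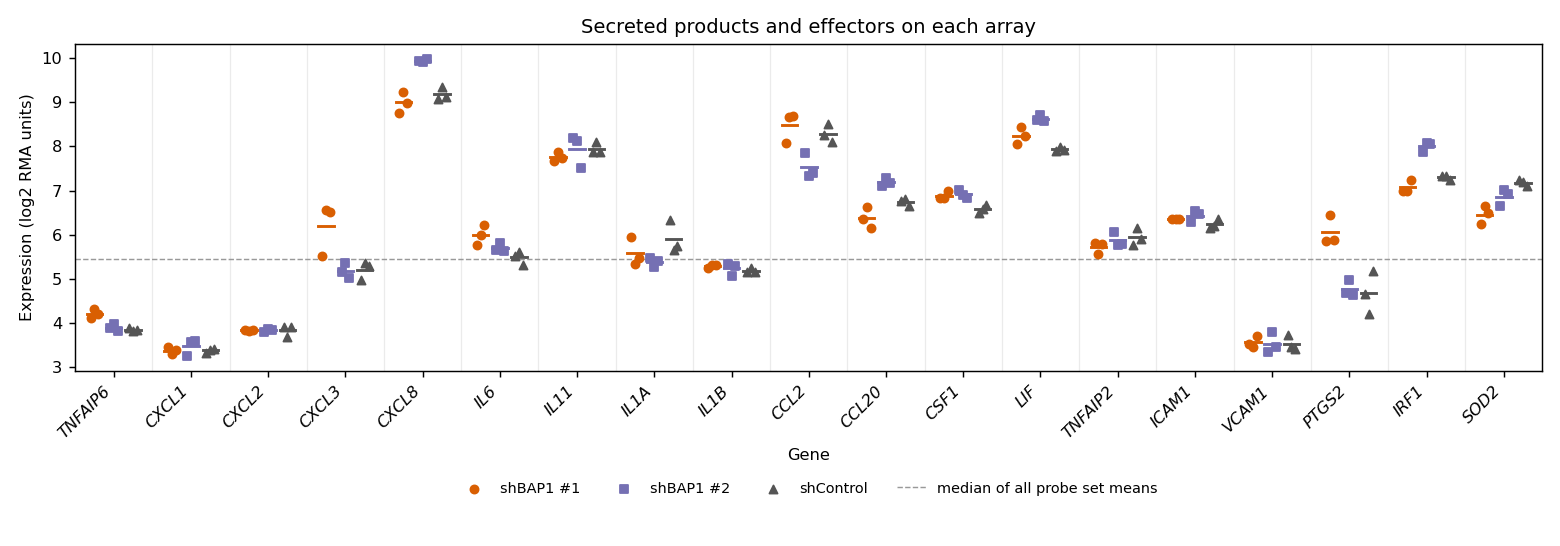
Level of each measured secreted product and effector gene (x axis) on every array, in log2 RMA units (y axis), for shBAP1 #1 (circles), shBAP1 #2 (squares) and shControl (triangles), with group means as bars and the median of all probe set means (5.44) as a dashed line. By their means, CXCL8, CCL20 and IRF1 are highest with shBAP1 #2, CXCL3, IL6 and PTGS2 are highest with shBAP1 #1, and CCL2 is lowest with shBAP1 #2.

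CXCL8, a chemokine gene whose product attracts neutrophils, read 8.77, 9.24 and 8.99 with shBAP1 #1, 9.95, 9.91 and 9.99 with shBAP1 #2 and 9.08, 9.35 and 9.12 with shControl. The shBAP1 #2 arrays were tightly grouped above all others. CXCL8 rose by 0.77 ± 0.11 with shBAP1 #2 (1.7-fold, adjusted p = 4.5e-04) and changed by -0.18 ± 0.11 with shBAP1 #1 (adjusted p = 0.31). The difference between the hairpins was -0.95 (adjusted p = 9.8e-05). The suffix of its probe set marks probes that also match other transcripts. A second CXCL8 probe set changed by 0.77 with shBAP1 #2 and -0.35 with shBAP1 #1.

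CXCL3, a neutrophil chemokine gene from the same chromosome region, rose with shBAP1 #1. It read 5.52, 6.56 and 6.51 with shBAP1 #1, 5.14, 5.35 and 5.02 with shBAP1 #2 and 4.98, 5.35 and 5.29 with shControl. All shBAP1 #1 arrays were higher than the others, though replicate 1 stood close to the highest control. The change was 0.99 ± 0.24 with shBAP1 #1 (adjusted p = 0.011) and -0.03 ± 0.24 with shBAP1 #2 (95% confidence interval -0.56 to 0.49). The difference was 1.03 (adjusted p = 0.0062). All shBAP1 #2 and shControl arrays lay below the mark, where background limits the signal, so no fold is given. CXCL1 and CXCL2, which share the promoter element of CXCL3 shown above, read 3.25 to 3.58 and 3.67 to 3.91 over all 9 arrays, below the mark in every array.

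CCL20, which attracts cells that carry the receptor CCR6, and CCL2, the monocyte chemoattractant gene, moved in opposite directions with shBAP1 #2. CCL20 read 6.36, 6.63 and 6.14 with shBAP1 #1, 7.11, 7.28 and 7.16 with shBAP1 #2 and 6.77, 6.80 and 6.64 with shControl. CCL2 read 8.07, 8.67 and 8.69 with shBAP1 #1, 7.85, 7.34 and 7.39 with shBAP1 #2 and 8.26, 8.51 and 8.11 with shControl. For CCL20 the controls lay between the hairpins, while for CCL2 the shBAP1 #2 arrays lay below the other 6. CCL20 changed by 0.45 ± 0.11 with shBAP1 #2 (adjusted p = 0.0099) and by -0.36 ± 0.11 with shBAP1 #1 (adjusted p = 0.037), with a difference of -0.81 (adjusted p = 2.4e-04). CCL2 fell by 0.77 ± 0.19 with shBAP1 #2 (1.7-fold lower, adjusted p = 0.0084) and changed by 0.18 ± 0.19 with shBAP1 #1 (adjusted p = 0.58), with a difference of 0.95 (adjusted p = 0.0023). The fall of CCL20 with shBAP1 #1 lost its call without shControl replicate 1 (-0.34) or 2 (-0.33), shBAP1 #1 replicate 1 (-0.35) or 3 (-0.24), or shBAP1 #2 replicate 3 (-0.36), at adjusted p up to 0.12, and with only those groups fitted (adjusted p = 0.06).

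Of the cytokine family that signals through IL6ST, IL6 was called with shBAP1 #1 only, LIF with both hairpins and IL11 with neither. IL6, the inflammatory cytokine gene, read 5.76, 5.99 and 6.21 with shBAP1 #1, 5.64, 5.81 and 5.62 with shBAP1 #2 and 5.52, 5.61 and 5.31 with shControl. All 6 shBAP1 arrays were above the controls, and those of the hairpins overlapped. The shControl mean, 5.48, lay close to the mark, where background limits the signal. IL6 rose by 0.51 ± 0.12 with shBAP1 #1 (adjusted p = 0.0087), and its change of 0.21 ± 0.12 with shBAP1 #2 did not pass (adjusted p = 0.22). The difference between the hairpins, 0.30, did not pass either (95% confidence interval 0.04 to 0.56, adjusted p = 0.076), but passed without shBAP1 #1 replicate 1 (0.41, adjusted p = 0.022).

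LIF, a cytokine gene known for keeping stem cells undifferentiated, read 8.06, 8.45 and 8.23 with shBAP1 #1, 8.59, 8.71 and 8.57 with shBAP1 #2 and 7.89, 7.98 and 7.93 with shControl. The groups did not overlap, with shBAP1 #2 highest and shControl lowest. It rose by 0.31 ± 0.09 with shBAP1 #1 (adjusted p = 0.033) and 0.69 ± 0.09 with shBAP1 #2 (1.61-fold, adjusted p = 2.7e-04). The call with shBAP1 #1 was lost without any one of the shControl arrays (0.29, 0.34 and 0.31), without shBAP1 #1 replicate 2 (0.21) or 3 (0.32), at adjusted p up to 0.11, and with only those groups fitted (adjusted p = 0.051). IL11, the third gene of this family, was not called with either hairpin (-0.19 and -0.00), although without shBAP1 #2 replicate 3 the hairpins differed by -0.41 (adjusted p = 0.012). A second IL11 probe set above the mark changed by 0.03 and 0.05 over all arrays and differed by -0.02 between the hairpins.

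CSF1, the macrophage growth factor gene, was higher with both hairpins by similar amounts. It read 6.83, 6.84 and 6.98 with shBAP1 #1, 7.02, 6.89 and 6.83 with shBAP1 #2 and 6.50, 6.57 and 6.67 with shControl. Every shBAP1 array was above the controls. The change was 0.30 ± 0.08 with shBAP1 #1 (adjusted p = 0.015) and 0.33 ± 0.08 with shBAP1 #2 (adjusted p = 0.0067), and the hairpins differed by -0.03 (95% confidence interval -0.20 to 0.14). The call with shBAP1 #1 was lost without shControl replicate 1 (0.26, adjusted p = 0.067), without shBAP1 #1 replicate 3 (0.25, adjusted p = 0.057) and with the mean of its 4 probe sets (0.14, adjusted p = 0.12).

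The remaining secreted products changed little or gave no clear reading. TNFAIP6, a hyaluronan-binding protein gene, lay below the mark at 4.11 to 4.30 with shBAP1 #1, 3.81 to 3.97 with shBAP1 #2 and 3.82 to 3.87 with shControl, and rose by 0.36 ± 0.07 with shBAP1 #1 (adjusted p = 0.0037), differing by 0.32 between the hairpins (adjusted p = 0.0056). IL1B read 5.07 to 5.34 over all arrays with no call. IL1A averaged 5.58 with shBAP1 #1, 5.38 with shBAP1 #2 and 5.91 with shControl, so its shBAP1 #2 mean lay below the mark. It changed by -0.32 ± 0.19 with shBAP1 #1 and -0.53 ± 0.19 with shBAP1 #2 (adjusted p = 0.27 and 0.053). Its second probe set, of almost the same mean level, changed by 0.72 and 0.12, so the 2 disagree in sign. IL1A passed as lower with shBAP1 #2 in 8 of the other fits, among them those without shControl replicate 2 (-0.65, adjusted p = 0.039) and without shBAP1 #1 replicate 1 (adjusted p = 0.031) or 2 (adjusted p = 0.05). With the replicate number as a block over the shBAP1 #1 and shControl arrays alone, IL1A also passed as lower with shBAP1 #1 (-0.32, adjusted p = 0.01).

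Among the 6 effectors, 1 rose and 1 fell with shBAP1 #1 (13% and 12.6% of all genes). With shBAP1 #2, 1 rose and none fell (16.9% and 16.5%). Between the hairpins, 1 was higher and 2 lower with shBAP1 #1 (17.6% and 17.1%). IRF1, a transcription factor that links NF-kappaB to interferon genes, read 6.99, 6.98 and 7.25 with shBAP1 #1, 7.87, 8.09 and 8.05 with shBAP1 #2 and 7.34, 7.33 and 7.23 with shControl. The shBAP1 #2 arrays were the highest, and 1 shBAP1 #1 array overlapped the controls. It rose by 0.71 ± 0.09 with shBAP1 #2 (1.63-fold, adjusted p = 1.9e-04) and changed by -0.23 ± 0.09 with shBAP1 #1 (adjusted p = 0.1), with a difference of -0.93 (adjusted p = 2.8e-05). Without shBAP1 #1 replicate 3, IRF1 also passed as lower with shBAP1 #1 (-0.31, adjusted p = 0.025), as it did with the mean of its probe sets (-0.27, adjusted p = 0.014).

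PTGS2, the gene of the inducible cyclooxygenase that makes prostaglandins, read 5.85, 6.45 and 5.87 with shBAP1 #1, 4.67, 4.98 and 4.62 with shBAP1 #2 and 4.64, 4.19 and 5.18 with shControl. It cleared the mark in the shBAP1 #1 arrays only. The log2 change, measured against background-limited values, was 1.39 ± 0.23 with shBAP1 #1 (adjusted p = 0.0014) and 0.08 ± 0.23 with shBAP1 #2 (adjusted p = 0.83). The hairpins differed by 1.30 (adjusted p = 0.0013). A second, dimmer PTGS2 probe set changed by 0.88 and -0.04.

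SOD2, which encodes the mitochondrial superoxide dismutase, was the only effector called lower against shControl. It read 6.23, 6.64 and 6.49 with shBAP1 #1, 6.65, 7.01 and 6.91 with shBAP1 #2 and 7.23, 7.19 and 7.10 with shControl. All 6 shBAP1 arrays lay below the controls, and every shBAP1 #1 array lay below every shBAP1 #2 array. SOD2 fell by 0.72 ± 0.12 with shBAP1 #1 (1.65-fold lower, adjusted p = 0.001), and its change of -0.32 ± 0.12 with shBAP1 #2 did not pass (adjusted p = 0.06), though it did in 6 of 16 other fits, among them those without shBAP1 #1 replicate 1 (adjusted p = 0.036) or 2 (adjusted p = 0.045) and without shBAP1 #2 replicate 2 (-0.39, adjusted p = 0.042). The difference of -0.40 between the hairpins (adjusted p = 0.02) lost its call without shBAP1 #1 replicate 1 (-0.29), shBAP1 #2 replicate 2 (-0.33) or shBAP1 #2 replicate 3 (-0.38), at adjusted p up to 0.082. SOD2 was read by 1 probe set.

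The adhesion molecule genes ICAM1 and VCAM1 and the effector gene TNFAIP2 were not called. ICAM1 read 6.35 on each shBAP1 #1 array, 6.28 to 6.54 with shBAP1 #2 and 6.15 to 6.35 with shControl. Its change with shBAP1 #2 was 0.19 ± 0.08 (95% confidence interval 0.01 to 0.38, adjusted p = 0.1), and it passed without shControl replicate 3 (0.25, adjusted p = 0.049) or shBAP1 #2 replicate 1 (0.27, adjusted p = 0.024). The other ICAM1 probe sets, below the mark at means of 5.20 and 3.81, changed by -0.09 and 0.12 with shBAP1 #2. VCAM1 read 3.33 to 3.78 over all arrays, below the mark throughout, and TNFAIP2 changed by -0.21 and -0.06 (adjusted p = 0.24 and 0.75).

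Read against the promoters, 12 of the genes that rose with shBAP1 #2 had a promoter sequence and 6 of these held a kappaB consensus match, against 5 of 14 among the other measured genes. The promoters of CXCL3 and IL6, which rose with shBAP1 #1, each held a match, and those of PTGS2 and TNFAIP6, which also rose, held none. Of the genes that fell with shBAP1 #1, CCL20 held a match and NFKB2 and SOD2 held none.

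Of 22 measured receptor and ligand genes that act upstream of the factors, 12 had a mean below the mark. With shBAP1 #1, 1 rose and 3 fell (13% and 12.6% of all genes), and with shBAP1 #2, 4 rose and 1 fell (16.9% and 16.5%). TNF, the cytokine gene that most classically starts the pathway, averaged 4.0, 3.92 and 3.98 in the shBAP1 #1, shBAP1 #2 and shControl arrays, below the mark. IL1R1, the signalling receptor for IL1A and IL1B, averaged 5.67 ± 0.23 with shBAP1 #1, 7.03 ± 0.28 with shBAP1 #2 and 5.73 ± 0.09 with shControl (SD, n = 3). It rose by 1.30 ± 0.15 with shBAP1 #2 (adjusted p = 8.2e-05), and the hairpins differed by -1.36 (adjusted p = 4.7e-05). TNFRSF12A, a receptor of the same superfamily as the tumour necrosis factor receptors, rose by 0.59 with shBAP1 #2 (adjusted p = 0.0012). CD40, a co-stimulatory receptor gene, fell with both hairpins (-0.58 and -0.52, adjusted p = 8.0e-04 and 0.0011). IL1R1 and TNFRSF12A were picked after their values were seen.

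Of 22 measured adaptors and kinases, 3 rose and 5 fell with shBAP1 #1 (13% and 12.6% of all genes), and 8 rose and 4 fell with shBAP1 #2 (16.9% and 16.5%), with medians of -0.08 and 0.22. MYD88, the adaptor of interleukin-1 and Toll-like receptors, averaged 8.28 ± 0.08 with shBAP1 #1, 9.12 ± 0.11 with shBAP1 #2 and 8.26 ± 0.10 with shControl, a rise of 0.86 ± 0.08 with shBAP1 #2 (adjusted p = 3.1e-05). IKBKB, a kinase that marks the inhibitors for destruction, rose by 0.85 with shBAP1 #2 (adjusted p = 1.5e-04). MAP3K14, the kinase of the non-canonical branch, rose by 0.66 with shBAP1 #2 (adjusted p = 1.1e-04). It also passed as lower with shBAP1 #1 (-0.28, adjusted p = 0.022), a call lost without shControl replicate 1 or 2 (-0.25 each) or shBAP1 #1 replicate 1 (-0.25) or 3 (-0.26), at adjusted p up to 0.089. These 3 were picked after their values were seen.

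Going the other way, MAP3K7, the kinase that activates the canonical branch, fell with both hairpins, by 0.99 with shBAP1 #1 and by 0.50 with shBAP1 #2 (adjusted p = 2.0e-05 and 7.3e-04). TAB2, its binding partner, changed by -0.54 and -0.73 (adjusted p = 6.6e-04 and 7.5e-05), but by -0.05 and -0.08 in a probe set free of shared probes (adjusted p = 0.73 and 0.47). TRAF5, an adaptor, rose by 0.53 and 0.66 (adjusted p = 0.0027 and 5.2e-04). TRADD, the adaptor of the tumour necrosis factor receptor, rose by 0.33 with shBAP1 #2 (adjusted p = 0.0019). Its rise of 0.19 with shBAP1 #1 (adjusted p = 0.046) was lost in 13 of 17 other fits, among them that with the replicate block over those groups alone (adjusted p = 0.062), those without each of the 3 shControl and each of the 3 shBAP1 #1 arrays (0.18 to 0.19) and without shBAP1 #2 replicate 2, at adjusted p up to 0.12.

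**Figure D4:**
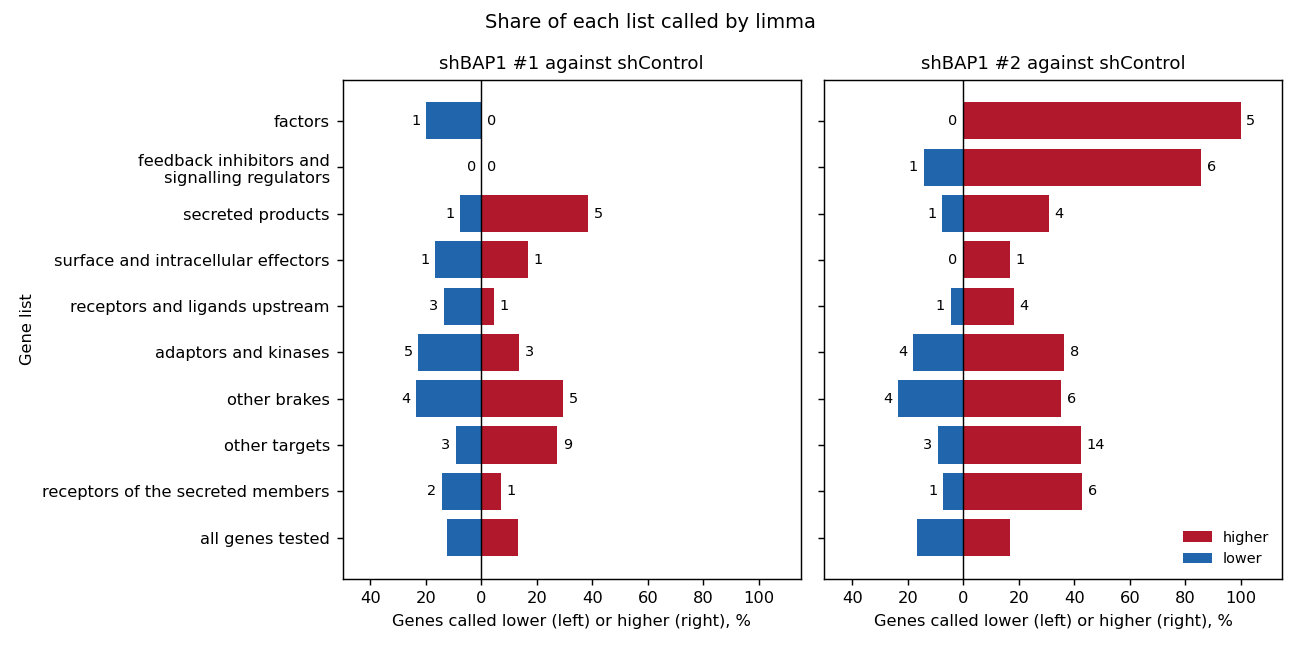
Share of the measured genes of each list (y axis) that was called higher (right of 0) or lower (left of 0) against shControl, in percent (x axis), with shBAP1 #1 in the left panel and shBAP1 #2 in the right, and the number of genes beside each bar. The bottom bars give all 19775 genes tested, and the factors (5 of 5) and regulators (6 of 7) have the longest bars to the right with shBAP1 #2.

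Of 17 further brakes on the pathway, 5 rose and 4 fell with shBAP1 #1 (13% and 12.6% of all genes), and 6 rose and 4 fell with shBAP1 #2 (16.9% and 16.5%). NFKBIZ, an inducible nuclear member of the inhibitor family that also helps switch on IL6, rose by 1.03 with shBAP1 #1 and 0.45 with shBAP1 #2 (adjusted p = 4.6e-05 and 0.005), and the hairpins differed by 0.58 (adjusted p = 9.8e-04). DUSP1, a phosphatase of stress kinases, rose by 0.57 and 0.37 (adjusted p = 0.0017 and 0.015), the second of which was lost without shControl replicate 3 (0.30, adjusted p = 0.059) or shBAP1 #2 replicate 2 (0.33, adjusted p = 0.057). TNIP2, a relative of TNIP1, changed by -0.36 and -0.71 (adjusted p = 0.011 and 1.4e-04). RNF11, which works with TNFAIP3, rose by 0.33 and 0.44 (adjusted p = 0.016 and 0.0027), the first of which was lost without shControl replicate 1 (0.34) or shBAP1 #1 replicate 1 or 2 (0.30 each), at adjusted p up to 0.066. PPM1B, a phosphatase, picked after its values were seen, fell by 1.55 with shBAP1 #2 (adjusted p = 5.9e-05).

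Of 33 other known targets, 9 rose and 3 fell with shBAP1 #1 (13% and 12.6% of all genes), and 14 rose and 3 fell with shBAP1 #2 (16.9% and 16.5%). The survival gene BCL2A1 averaged 8.86 ± 0.32 with shBAP1 #1, 9.50 ± 0.33 with shBAP1 #2 and 6.96 ± 0.36 with shControl. PTX3, a secreted pattern-recognition protein gene, averaged 9.42 ± 0.11, 10.04 ± 0.14 and 8.62 ± 0.18 in the same order of groups, a rise of 0.81 with shBAP1 #1 and 1.42 with shBAP1 #2 (adjusted p = 3.0e-04 and 9.9e-06). BMP2, a bone morphogen gene, rose by 0.76 and 1.02 (adjusted p = 2.9e-04 and 3.8e-05), and the metalloproteinase gene MMP3 by 1.87 and 1.14 (adjusted p = 4.0e-04 and 0.006).

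The cytokine gene IL32, picked after its values were seen, separated the hairpins furthest among these targets. It averaged 7.75 ± 0.29 with shBAP1 #1, 9.77 ± 0.07 with shBAP1 #2 and 8.52 ± 0.35 with shControl. It changed by -0.77 with shBAP1 #1 (adjusted p = 0.007) and 1.25 with shBAP1 #2 (adjusted p = 2.8e-04), and the hairpins differed by -2.02 (adjusted p = 1.3e-05). IL15, a lymphocyte growth factor gene picked in the same way, rose by 1.13 with shBAP1 #2 (adjusted p = 2.9e-04) and changed by -0.13 with shBAP1 #1 (adjusted p = 0.66).

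Of 14 receptors for the secreted products, 1 rose and 2 fell with shBAP1 #1 (13% and 12.6% of all genes), and 6 rose and 1 fell with shBAP1 #2 (16.9% and 16.5%). OSMR, a receptor of the IL6 family, rose by 0.31 and 0.63 (adjusted p = 0.0052 and 5.7e-05). IL6R, the binding receptor for IL6, averaged 7.53 ± 0.02 with shBAP1 #1, 9.0 ± 0.38 with shBAP1 #2 and 8.26 ± 0.10 with shControl, changing by -0.73 with shBAP1 #1 (adjusted p = 0.0044) and 0.74 with shBAP1 #2 (adjusted p = 0.003). LIFR, the receptor for LIF, went the same 2 ways at -0.42 and 0.64 (adjusted p = 0.0012 and 6.5e-05). IL6ST, the chain that IL6, IL11 and LIF receptors share, rose by 0.90 with shBAP1 #2 (adjusted p = 6.1e-04). IL6R, LIFR and IL6ST were picked after their values were seen. Among the receptors for the chemokines above, CXCR1 averaged 6.44 with shBAP1 #1, 6.62 with shBAP1 #2 and 6.59 with shControl, with no call, while CXCR2, CCR2 and CCR6 averaged below the mark in all groups.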

How the data were processed

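Per the submitters' processing notes, the authors made the deposited log2 values with RMA (no version given), which corrects background and gives all arrays 1 intensity distribution, so global shifts are removed and changes of dim genes compressed. The table holds 54675 probe sets on 9 arrays (medians 5.4 to 5.45, no arrays identical). The number of arrays limits the precision. The platform annotation gave 1 symbol to 41097 probe sets, several to 1801 and none to 11777.

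Groups and replicate numbers came from the sample titles. Deviations from the group means correlated weakly between same-numbered shBAP1 #1 and shControl arrays (r = 0.11, 0.2 and 0.22). Same-numbered shBAP1 #2 arrays did not all correlate with either other group, and differently numbered shBAP1 #2 and shBAP1 #1 arrays reached r = 0.24. The labels give no pairing, these values do not establish one, and the main fit held no block. Models were fitted with limma (3.58.1, R 4.3.3; lmFit, eBayes, two-sided) to 1 probe set for each of 19775 genes over all 9 arrays, with no covariate and no filter, and p-values were adjusted by Benjamini-Hochberg over all genes. The fit was tested on simulated data. The NF-kappaB genes, lists and tests were chosen with earlier results of these data known. Genes called in a pairwise comparison and not below the mark are given on every array. From other lists, up to 4 genes called the same way with both hairpins and with the largest mean change are named. Alternatives varied the probe sets, scaling, filter, prior, groups, block, fold minimum and arrays. Figures were drawn with matplotlib 3.10.9.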

Additional observations from a re-analysis of the deposited data

Results flagged for a closer look

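2 of the NF-kappaB genes were called against shControl in opposite directions with the hairpins, and the difference itself passed the test. NFKB2 differed by -0.99 (shBAP1 #1 minus shBAP1 #2), with means of 7.47 with shBAP1 #1, 8.46 with shBAP1 #2 and 7.90 with shControl. CCL20 differed by -0.81, with means of 6.38 with shBAP1 #1, 7.18 with shBAP1 #2 and 6.74 with shControl. The NFKB2 calls held in every other fit with no fold minimum (17 with shBAP1 #1, 16 with shBAP1 #2), whereas the call of CCL20 with shBAP1 #1 was lost in 6 of 17. Neither gene's change with shBAP1 #1 or shBAP1 #2 reached 1.5-fold (1.36 and 1.46 for NFKB2, 1.28 and 1.36 for CCL20). Across all genes tested, 3.44% were called in opposite directions with the hairpins.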

How the results depend on the processing

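Of the 48 calls of single NF-kappaB genes in the 3 pairwise comparisons, none changed direction in any other fit they entered, 17 for shBAP1 #1 against shControl and 16 for the others (probe set choice, scaling, dim genes, prior, groups fitted, block and single arrays left out). With shBAP1 #2 against shControl, 15 of 18 calls held in every fit, with shBAP1 #1 against shControl 6 of 9, and between the hairpins 18 of 21. A minimum change of 1.5-fold left 3 NF-kappaB genes with shBAP1 #1, 11 with shBAP1 #2 and 3 of 16 for the mean of both, and 0 called the same way with both in place of 2. Over all genes it left 1829 of 5058 with shBAP1 #1, 2678 of 6600 with shBAP1 #2, 2949 of 6860 between the hairpins and 1540 of 5679 for the mean of both against shControl. The genes called the same way with both (CSF1 and LIF) came to 1 when the probe sets of a gene were averaged, and to between 0 and 3 when single arrays were left out. Leaving out probe sets of shared probes removed 8 of the 31 genes and left 12 calls with shBAP1 #2 and 9 for the mean of both, a count that ranged from 9 to 17 when single arrays were left out.

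With the replicate block over all 9 arrays, 9 NF-kappaB genes were called with shBAP1 #1, 20 with shBAP1 #2, 21 between the hairpins and 3 the same way with both, and 4988, 6548, 6787 and 5613 genes in all in the 4 comparisons. SOD2 (-0.32, adjusted p = 0.035) was the third gene called the same way, and IL1A passed with shBAP1 #2 (adjusted p = 0.0049). The block over the shBAP1 #1 and shControl arrays alone, added after seeing the data, called 10 NF-kappaB genes and 5735 in all. Among the genes named here it changed the calls of IL1A and TRADD. Same-numbered shBAP1 #2 and shControl arrays had r of -0.11 to 0.18. Further probe sets above the median level gave 12 repeat readings of changes called against shControl, and all 12 had the same sign. A change read by several such probe sets, as for REL and NFKBIB, counts once for each. Signal near background limits what can be said of the 6 genes with a mean below that level, CXCL1, CXCL2, VCAM1, IL1B, TNFAIP6 and PTGS2, and of CXCL3, which was above it with shBAP1 #1 only. The same holds for IL6, which averaged 5.48 with shControl, and for IL1A, which averaged 5.38 with shBAP1 #2.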
